A study of Homo sapiens with 8 samples.

Results

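The nuclear genes of mitochondrial complex I were compared between NKM-1 cells treated with SF153 and NKM-1 cells treated with DMSO. They were taken as every protein-coding gene with a symbol starting with NDUF, which gave 47 of the 17912 genes in the files. Of these, 39 carry subunit symbols and 8 are assembly factors with symbols starting with NDUFAF. NKM-1 is an established human myeloid leukemia line, labelled wildtype. One group of 4 libraries came from cells given 30 uM SF153 for 48 h, and the control group of 4 libraries came from cells given the solvent DMSO for the same time. The series title describes an inhibitor of splicing factors that carry a U2AF homology motif. Each group holds 2 libraries from each of 2 batches, and SF153 2.1 stands for the first SF153 library of batch 2. The labels do not say that libraries of a group came from separate cultures, so every p-value rests on the variation among libraries alone, part or all of which may be technical.

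Complex I, or NADH:ubiquinone oxidoreductase, is the entry point of the respiratory chain for electrons from NADH. Its N module oxidises NADH, its Q module passes the electrons through iron-sulfur clusters to ubiquinone, and the modules of its membrane arm move protons across the inner mitochondrial membrane. Mitochondrial DNA encodes the core of the membrane arm, while nuclear DNA encodes the core of the N and Q modules and all accessory subunits. Assembly factors build the modules, modify them or join them, and are absent from the finished enzyme.

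The values are the authors' deposited signal, which the file names describe as both CPM and TPM. Either is relative to the rest of its library, so fewer transcripts of a gene and more RNA from other genes cannot be told apart. Nor can fewer cells of a kind and less RNA per cell be told apart in these bulk samples. Read depth is unknown. Signal summed to 828381 and 835840 in SF153 2.1 and 2.2 and to between 990815 and 1027119 in the other 6 libraries. The mitochondrial genome contributed 16.8% of signal in SF153 2.1 and in SF153 2.2, and 9.17% to 9.92% in each remaining library. Mitochondrial and small noncoding RNA together took 49.7% to 56.2% of the signal in SF153 and 43.6% to 47.9% in DMSO libraries. Of 10 myeloid markers, 8 had rows, and of the 7 tested, LYZ, CEBPA and MPO were called lower, CD33 and ITGAM higher, and 2 were not called. MPO, the myeloperoxidase of granulocyte precursors, averaged 469.6 ± 57.3 in SF153 and 740.3 ± 22.4 in DMSO libraries, and CD33, a surface marker of myeloid cells, 98.5 ± 8.32 in SF153 and 74.2 ± 7.07 in DMSO libraries (SD, n = 4 each). Of 10 markers of other lineages only PECAM1, which myeloid cells also express, had a row, with a mean of 19.3 in SF153 and 12.5 in DMSO libraries.

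Most subunit genes had lower signal after SF153, and the assembly factors showed smaller differences in both directions. Of the 39 subunits, 35 fell, none rose, and NDUFA5, NDUFA4L2, NDUFV3 and NDUFA10 did not pass the test (limma on log2(signal + 1), adjusted p below 0.05 over the 15542 genes tested). Among all genes tested, 24.3% were called lower and 13.0% higher, and among protein-coding genes 32.5% were called lower. The median log2 difference of the subunits was −1.30, with a range from −2.43 to 0.01, beside −0.03 over all genes tested and −0.15 over the 11085 protein-coding ones. Of the 8 assembly factors, 5 fell, 1 rose and 2 did not pass, with a median of −0.58 and a range from −1.13 to 0.40. A called fall of at least 1 on the log2 scale was seen for 25 subunits and for 1 assembly factor. The share of all genes tested with such a fall was not determined. All 4 SF153 libraries lay below all 4 DMSO libraries for 35 subunits and 5 assembly factors, a separation that 23.6% of all genes tested showed. All 47 members passed the filter of a mean signal of at least 1 over the 8 libraries.

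**Figure D1:**
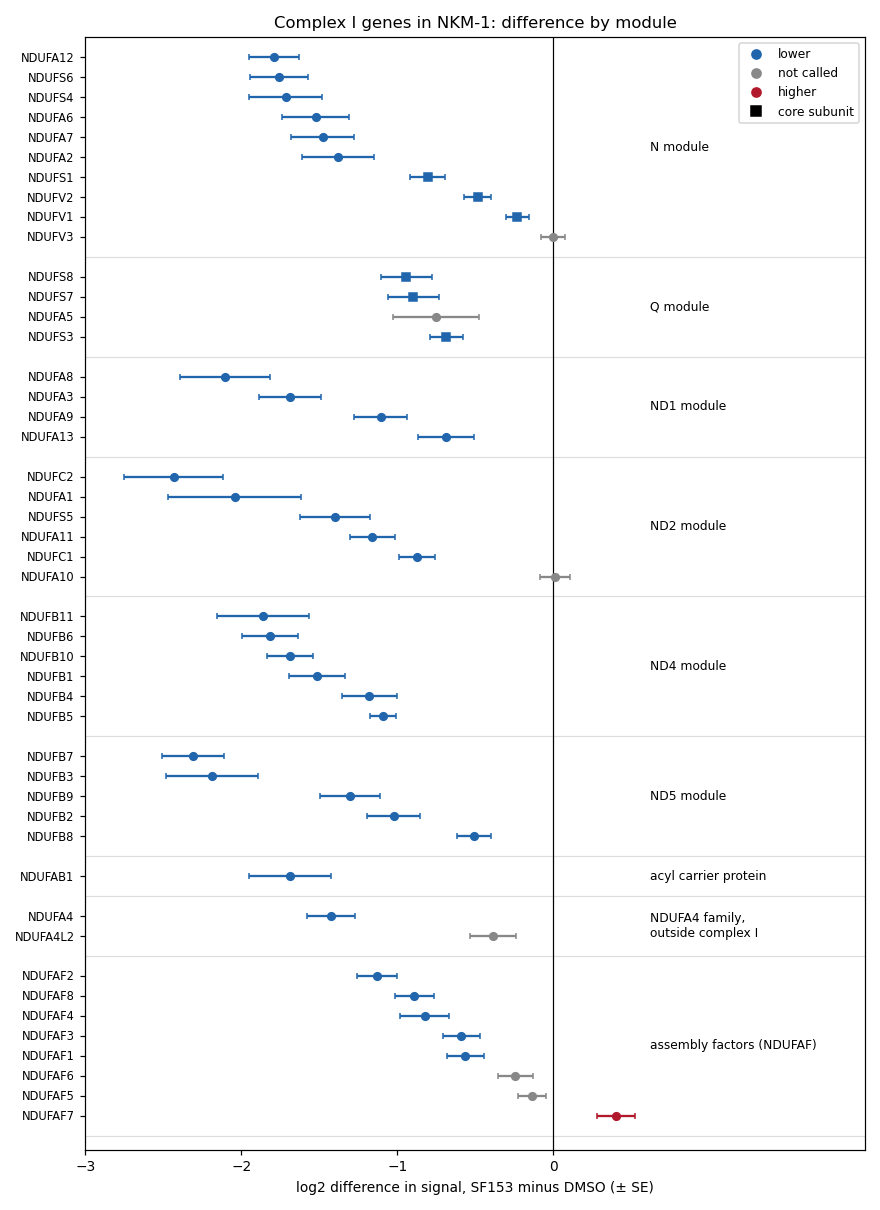
Log2 difference of signal, SF153 minus DMSO, for 46 of the 47 genes, grouped by module and with the assembly factors apart; error bars are standard errors from limma. The called subunits lie between −2.43 and −0.23, while the assembly factors lie between −1.13 and 0.40.

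The contrast between subunits and assembly factors can also be read inside each library, from the same values. A common scaling factor nearly cancels there, but a difference between treatments that follows coding length does not. The mean log2 signal of the subunits exceeded that of the assembly factors by 0.65, 0.47, 0.0039 and 0.025 in SF153 1.1, 1.2, 2.1 and 2.2, and by 1.13, 1.15, 0.90 and 0.98 in DMSO 1.1, 1.2, 2.1 and 2.2. All 4 SF153 libraries lay below all 4 DMSO libraries in this quantity, and those of SF153 batch 2 lay lowest. Summed over the 39 subunits, signal was 1257, 1218, 920 and 923 in the SF153 libraries and 2310, 2307, 2022 and 2106 in the DMSO libraries. Summed over the 8 assembly factors it was 139, 149, 149 and 149 in the SF153 libraries and 197, 192, 193 and 202 in the DMSO libraries. The subunits also spread further from each other after SF153, with an SD of log2 signal among subunits of 1.19 to 1.29 in SF153 and 0.97 to 1.05 in DMSO libraries.

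**Figure D2:**
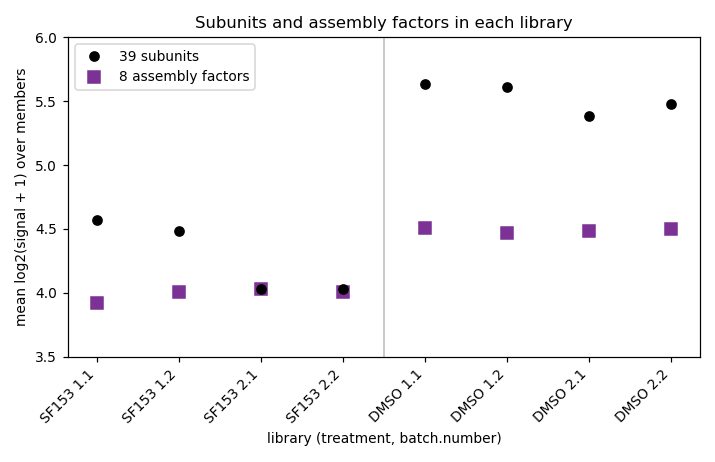
Mean log2(signal + 1) of the 39 subunits and of the 8 assembly factors in each of the 8 libraries, SF153 left of DMSO. Subunit means lie at 4.03 to 4.57 in SF153 and 5.39 to 5.63 in DMSO libraries, and assembly factor means at 3.92 to 4.03 in SF153 and 4.47 to 4.50 in DMSO libraries.

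Among subunits, the largest falls were in small accessory proteins of the membrane arm. NDUFC2, an accessory subunit of the ND2 module encoded at chr11:78068304-78080219 (GRCh38, minus strand), had a signal of 13.2, 12.9, 4.27 and 6.18 in the SF153 libraries, against 49.1, 64.2, 37.9 and 49.3 in the DMSO libraries. The groups did not overlap, and both SF153 libraries of batch 2 were lower than both of batch 1. Its mean was 18.3% of the DMSO mean, with a log2 difference of −2.43 ± 0.31 (SE; limma adjusted p = 0.000316). NDUFB7, an intermembrane-space protein of the ND5 module encoded at chr19:14566078-14572062 (minus strand), had 10.1, 6.34, 4.49 and 6.62 in SF153 and 45.8, 36.2, 31.9 and 34.9 in DMSO libraries. The highest SF153 library was below the lowest DMSO library by a wide margin, and the log2 difference was −2.31 ± 0.20 (SE; limma adjusted p = 5e-05). NDUFB3, another accessory subunit of the ND5 module, encoded at chr2:201071433-201085750 (plus strand), had 10.3, 14.2, 4.65 and 5.08 in SF153 and 43.5, 41.0, 41.0 and 31.5 in DMSO libraries. No library of one group reached the other, with a log2 difference of −2.19 ± 0.30 (SE; limma adjusted p = 0.000402).

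NDUFA8, an accessory subunit of the ND1 module on the intermembrane-space side, had 9.33, 4.56, 2.83 and 4.61 in SF153 and 29.4, 29.4, 17.0 and 24.2 in DMSO libraries. Its groups did not overlap, and the log2 difference was −2.10 ± 0.29 (SE; limma adjusted p = 0.000425). NDUFA1, an X-linked membrane subunit of the ND2 module, had 36.6, 25.5, 11.3 and 7.01 in SF153 and 84.2, 89.6, 57.2 and 62.0 in DMSO libraries. Batch 2 was the lower batch in both groups, and the SE of its log2 difference of −2.04 was 0.43, above those of the other 5 subunits with the largest falls (limma adjusted p = 0.00456). With libraries averaged by treatment and batch it did not pass (limma adjusted p = 0.0514). NDUFB11, an X-linked membrane subunit of the ND4 module, had 24.4, 30.8, 11.4 and 12.3 in SF153 and 77.7, 82.8, 57.3 and 59.4 in DMSO libraries. The groups again did not overlap, with a log2 difference of −1.86 ± 0.29 (SE; limma adjusted p = 0.000974).

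**Figure D3:**
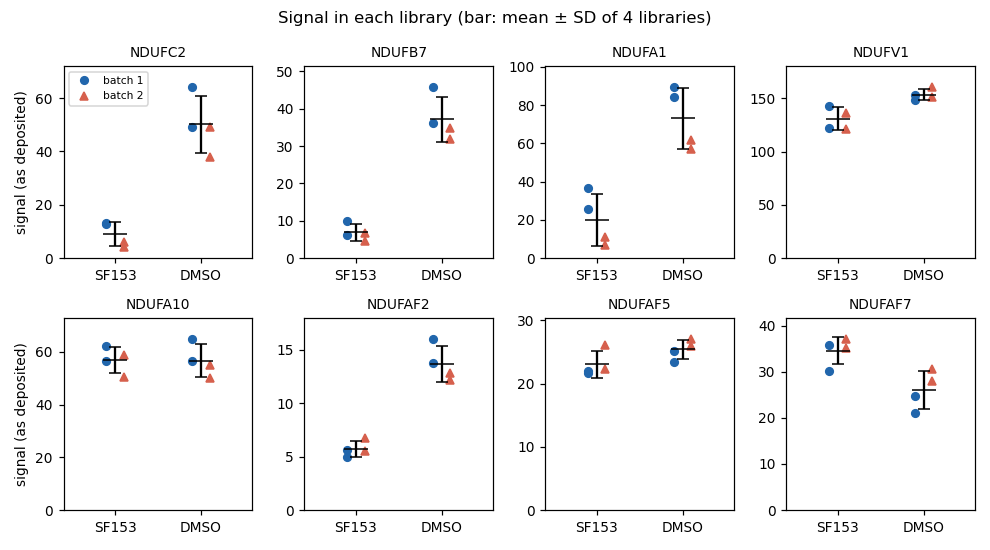
Signal in each library, SF153 left of DMSO, for NDUFC2, NDUFB7, NDUFA1, NDUFV1, NDUFA10, NDUFAF2, NDUFAF5 and NDUFAF7, with symbols by batch and bars for the mean ± SD of 4 libraries. Every SF153 point of NDUFC2, NDUFB7, NDUFA1, NDUFV1 and NDUFAF2 lies below every DMSO point, while for NDUFA10 the points of both groups cover the same range.

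The N module, which takes electrons from NADH, held both strongly lowered accessory subunits and subunits with little or no difference. Of its 10 nuclear subunits, 9 fell, with a median log2 difference of −1.43. The accessory subunits NDUFA12, NDUFS6 and NDUFS4, which sit where the N module meets the rest of the enzyme, had log2 differences of −1.79, −1.76 and −1.72. NDUFS4 averaged 12.6 ± 4.54 in SF153 and 42.0 ± 6.72 in DMSO libraries (SD, n = 4 each). It is a gene in which human mutations cause Leigh syndrome. The core subunits of the same module differed less than NDUFA12, NDUFS6 and NDUFS4, and have longer coding sequences. NDUFS1, which carries several iron-sulfur clusters, averaged 20.9 ± 2.99 in SF153 and 37.1 ± 3.45 in DMSO libraries, a log2 difference of −0.81. NDUFV2, which carries a further cluster, had a log2 difference of −0.48, and it was not called, at −0.15, with mitochondrial and small RNA genes removed.

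NDUFV1, which binds NADH and the FMN cofactor, had the smallest difference among the called subunits. Its signal was 143.0, 121.8, 121.4 and 136.3 in SF153 and 148.1, 153.3, 160.6 and 150.9 in DMSO libraries. All SF153 values lay below all DMSO values, but the log2 difference was −0.23 ± 0.07 (SE; limma adjusted p = 0.0334), and it was not called when any one of 6 libraries was left out (−0.25 to −0.20 without SF153 1.2, SF153 2.1 or any DMSO library). Under quantile normalization it was 0.02 and with mitochondrial and small RNA genes removed 0.11, so its direction depends on the scaling. NDUFV3, a small accessory subunit bound to NDUFV1 and NDUFV2, had 50.2, 47.2, 45.5 and 49.8 in SF153 and 48.0, 50.7, 43.2 and 51.3 in DMSO libraries. The ranges lay over each other, with a log2 difference of −0.00 ± 0.08 (SE; limma adjusted p = 0.993). This gene was called higher, at 0.33, once mitochondrial and small RNA genes were removed.

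The Q module, which hands electrons to ubiquinone, had 4 of its 5 nuclear subunits called lower. NDUFS7, which carries the iron-sulfur cluster nearest to ubiquinone, had a log2 difference of −0.90. NDUFS8, which carries further iron-sulfur clusters, was at −0.94, and NDUFS3, a core subunit of the peripheral arm, was at −0.68. NDUFA5, an accessory subunit, was the 1 that was not called. It had 11.3, 5.11, 4.84 and 4.06 in SF153 and 10.2, 14.8, 8.63 and 9.47 in DMSO libraries. SF153 1.1 lay inside the DMSO range and the other 3 SF153 libraries lay below it. The log2 difference was −0.75 ± 0.27 (SE; limma adjusted p = 0.0559), and it was −1.03 (limma adjusted p = 0.00319) without SF153 1.1. With batch as a block the adjusted p was 0.0258, with libraries averaged by treatment and batch it was 0.138, and over all alternatives it ran from 0.00319 to 0.857 (limma).

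Across both hydrophilic modules, the 7 core subunits, which are those shared with bacterial forms of the enzyme, were all called lower, with log2 differences from −0.94 to −0.23. The 30 accessory subunits had 27 called lower and a median of −1.50. Median coding length was 792 nt for the core and 385.5 nt for the accessory subunits. With a coding length trend over all protein-coding genes removed, as described below, their median log2 differences were −0.44 and −0.73. Leaving out NDUFA4 and NDUFA4L2, the 37 subunits that belong to complex I had 34 called lower and a median of −1.30. NDUFA4, named as a complex I subunit and later assigned to complex IV, fell by 1.42 on the log2 scale, and its paralog NDUFA4L2 was at −0.38 without passing the test. NDUFA4L2 was called, at −0.49, without SF153 1.2.

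In the membrane arm, 20 of 21 nuclear subunits fell. The ND1 module had 4 of 4 called lower with a median log2 difference of −1.40, and the ND2 module 5 of 6 with −1.28. The distal ND4 module had 6 of 6 called lower with a median of −1.60, and the ND5 module 5 of 5 with −1.30. NDUFB5 of the ND4 module had the smallest SE relative to its fall, with means of 31.9 ± 2.48 in SF153 and 69.0 ± 4.87 in DMSO libraries (SD, n = 4 each) and a log2 difference of −1.09 ± 0.08 (SE; limma adjusted p = 3e-05). NDUFB6 of the same module had a mean of 2.20 in SF153 and 10.4 in DMSO libraries. NDUFAB1, the mitochondrial acyl carrier protein, is bound at more than one place in the enzyme and also serves fatty acid synthesis, and it fell by 1.69 on the log2 scale. The smallest falls in the membrane arm were those of NDUFB8 at −0.50 and NDUFA13, also known as GRIM-19, at −0.69. NDUFA13 did not pass the test under quantile normalization (−0.46) or with mitochondrial and small RNA genes removed (−0.35).

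NDUFA10, an accessory subunit of the ND2 module related to deoxyribonucleoside kinases, was the exception in the membrane arm. It had 56.55, 62.13, 58.69 and 50.43 in SF153 and 56.57, 64.87, 50.02 and 54.96 in DMSO libraries. The groups covered the same range, with a log2 difference of 0.01 ± 0.10 (SE; limma adjusted p = 0.942). Like NDUFV3 it was called higher, at 0.35, once mitochondrial and small RNA genes were removed.

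**Figure D4:**
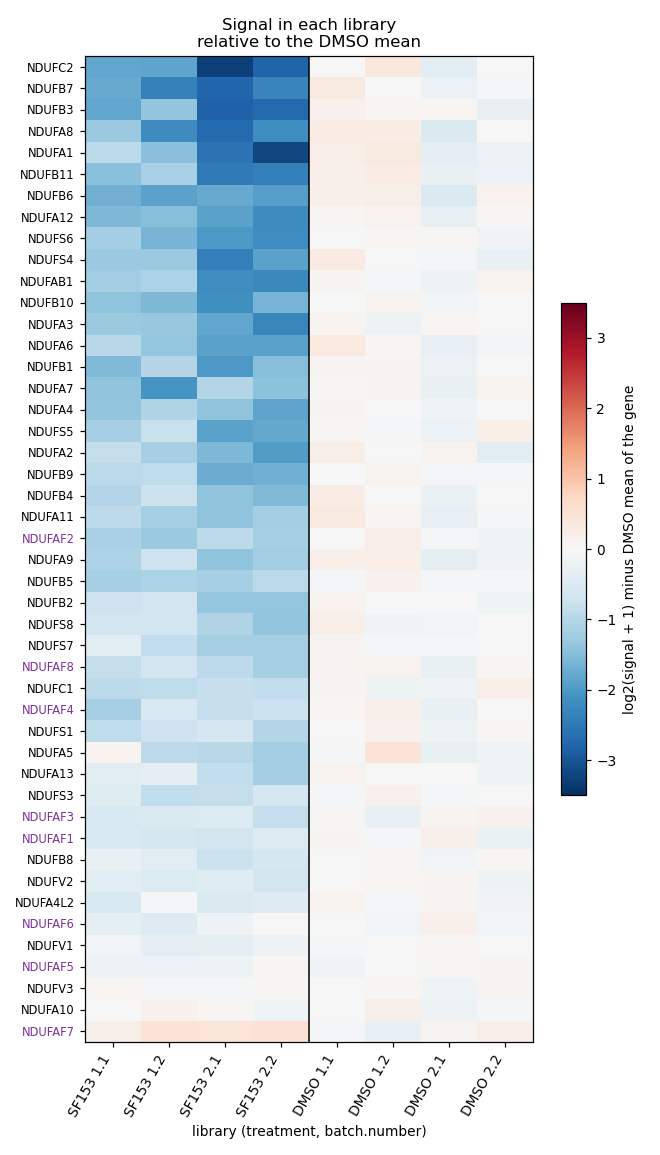
Signal of 46 of the 47 genes in each library as log2(signal + 1) relative to the gene's mean over the 4 DMSO libraries, with SF153 libraries left of DMSO libraries. The rows of most subunits are lower in all 4 SF153 columns, and those of NDUFA5, NDUFV3, NDUFA10, NDUFAF5 and NDUFAF7 are not.

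Of the assembly factors, NDUFAF2 had the largest fall. NDUFAF2, a paralog of NDUFA12 that acts late in assembly, had 5.61, 4.92, 6.77 and 5.53 in SF153 and 13.72, 16.01, 12.83 and 12.12 in DMSO libraries. The groups did not overlap, and the log2 difference was −1.13 ± 0.13 (SE; limma adjusted p = 0.000158). A pseudogene, NDUFAF2P2, also has a row, with 2.63 to 10.8 in single libraries, so reads could be split between the copies and the level of NDUFAF2 is uncertain. NDUFAF8, the partner of NDUFAF5, had 29.1, 32.5, 27.4 and 22.7 in SF153 and 55.5, 57.0, 43.4 and 54.3 in DMSO libraries. Its log2 difference was −0.89 ± 0.12 with no overlap (SE, limma adjusted p = 0.000492).

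NDUFAF3 and NDUFAF4 bind each other and act early on the Q module. NDUFAF4 had 4.61, 7.51, 6.22 and 6.43 in SF153 and 12.2, 13.3, 9.56 and 11.6 in DMSO libraries. NDUFAF3 had 18.1, 18.5, 18.9 and 14.4 in SF153 and 27.2, 22.2, 28.4 and 29.4 in DMSO libraries. Neither pair of groups overlapped, with log2 differences of −0.82 ± 0.15 for NDUFAF4 and −0.59 ± 0.12 for NDUFAF3 (SE; limma adjusted p = 0.0025 and 0.00386). NDUFAF3 was not called with mitochondrial and small RNA genes removed (−0.26) or in batch 1 alone, nor was NDUFAF4 in either batch alone. NDUFAF1, which works with ACAD9 and ECSIT on the ND2 module, had 6.52, 6.21, 6.03 and 6.91 in SF153 and 10.7, 9.55, 11.3 and 8.39 in DMSO libraries. These groups were also separate, with a log2 difference of −0.56 ± 0.12 (SE; limma adjusted p = 0.00518), and the call was lost with mitochondrial and small RNA genes removed (−0.26) and in either batch alone.

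The other 3 assembly factors were not called lower. NDUFAF5, which hydroxylates an arginine of NDUFS7, had 21.7, 21.9, 22.3 and 26.2 in SF153 and 23.4, 25.2, 25.9 and 27.1 in DMSO libraries. The groups overlapped through SF153 2.2, with a log2 difference of −0.14 ± 0.09 (SE; limma adjusted p = 0.263). NDUFAF6, an early factor, had 23.4, 21.7, 26.0 and 29.7 in SF153 and 29.7, 27.7, 34.1 and 28.0 in DMSO libraries. Its groups overlapped as well, with a log2 difference of −0.24 ± 0.11 (SE; limma adjusted p = 0.123), and it was called at −0.32 without SF153 2.2.

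NDUFAF7, an arginine methyltransferase of the mitochondrial matrix encoded at chr2:37231631-37253403 (GRCh38, plus strand), was the 1 gene called higher. It had 30.2, 35.8, 35.1 and 37.1 in SF153 and 24.8, 21.0, 27.9 and 30.6 in DMSO libraries. The lowest SF153 library lay just below the highest DMSO library, and the log2 difference was 0.40 ± 0.12 (SE; limma adjusted p = 0.0261). The call was lost when SF153 1.2, 2.1 or 2.2 or DMSO 1.1 or 1.2 was left out, with log2 differences of 0.31 to 0.39, and within batch 1 (0.51) and batch 2 (0.30) alone. Its direction was positive in each of these.

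Most subunits had lower signal after SF153 in each batch, and their median was farther from 0 in batch 2, a contrast that was not tested. In batch 1 alone, 33 of 39 subunits were called lower with a median log2 difference of −1.12, and in batch 2 alone 33 were called lower with −1.35. Among all genes tested, 14.6% were called lower and 5.54% higher in batch 1 alone, and 15.8% lower and 5.53% higher in batch 2 alone. With libraries averaged by treatment and batch, 31 subunits and 5 assembly factors were called lower and none higher, beside 16.2% lower and 5.86% higher among all genes tested. With batch as a block, 36 subunits were called lower, beside 24.9% lower and 13.3% higher. The difference was below 0 in both batches for 37 subunits, and the share of all genes tested with this pattern was not determined. Of the assembly factors, 2 fell in batch 1 alone with a median of −0.50, and 3 in batch 2 alone with −0.59. For 24 of 39 subunits both SF153 libraries of batch 2 lay below both of batch 1, and for DMSO this held for 18 of 39, beside 26.3% of all genes tested in SF153 and 22.3% in DMSO. The same held for 1 of 8 assembly factors in SF153 and for 3 of 8 in DMSO. The SF153 libraries of batch 2 are those with the larger mitochondrial share, and the part of that share in the subunits' lower signal was not tested.

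The 7 mitochondrially encoded subunits did not fall with the nuclear ones. Their signal, summed over genes, was 28267, 30906, 46513 and 47826 in SF153 and 27527, 27392, 26645 and 28626 in DMSO libraries. None was called lower and 1 was called higher, with a median log2 difference of 0.39, which was −0.02 in batch 1 and 0.76 in batch 2. All 7 were called higher in batch 2 alone, beside 5.53% of all genes tested. Under median-of-ratios scaling 3 were called higher, beside 2565 of the 15529 genes tested. Under quantile normalization 3 were called higher, beside 3225 of 15542. SF153 2.1 and 2.2 had the highest sums, SF153 1.2 was above all DMSO libraries, and SF153 1.1 lay inside the DMSO range. The called gene was MT-ND4L at 0.51 ± 0.17 (SE, limma adjusted p = 0.0356). It lies on a transcript shared with MT-ND4, so the levels of the pair are not independent. MT-ND4 itself was at 0.54 ± 0.19 (SE; limma adjusted p = 0.0512). MT-ND6, the 1 subunit gene on the light strand, had the smallest difference, 0.22.

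The nuclear subunits of complexes II to V, the remainder of oxidative phosphorylation, also fell. All 40 were called lower, with a median log2 difference of −1.69 beside −1.30 for the 39 complex I subunits, and UQCR10, COX5A and ATP5PB had the largest falls among them, at −2.49, −2.40 and −2.34. The 12 complex I assembly factors without NDUF symbols had 5 called lower, 1 called higher and a median of −0.50, beside −0.58 for the 8 with such symbols. The called ones included TMEM126A at −1.45, DMAC1 at −1.06 and TMEM70 at −0.97, while ACAD9, the partner of NDUFAF1, was called higher at 0.28. With mitochondrial and small RNA genes removed, 3 of the 12 were called lower and 3 higher, with a median of −0.19. Among all genes tested, 13.8% were called lower and 35.0% higher after that removal, and 24.3% and 13.0% on the deposited scale. Of 14 genes of mitochondrial iron-sulfur cluster supply, on which NDUFS1, NDUFS7, NDUFS8, NDUFV1 and NDUFV2 depend, 10 fell and the median over all 14 was −0.53, led by BOLA3 at −2.04, GLRX5 at −1.82 and NFU1 at −1.21. With mitochondrial and small RNA genes removed 5 of them were called lower with a median of −0.22. In batch 1 alone 3 were, beside 14.6% of all genes tested. Of 10 regulators of mitochondrial biogenesis measured, 5 fell and the median over all 10 was −0.42. These included TFAM and TFB2M, factors that act in starting transcription of mitochondrial DNA, at −1.29 and −1.01. GABPB1, a subunit of the GABP transcription factor, was at −1.19. With mitochondrial and small RNA genes removed, 5 of the 10 were called lower and 2 higher. NRF1, a regulator of respiratory chain genes, was at −0.20 and was not called.

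Gene structure differed between subunits and assembly factors, and also went with the size of the difference. The principal transcripts of the subunits had a median coding length of 423 nt and 4 exons, those of the assembly factors 766.5 nt and 5 exons, and those of all protein-coding genes tested 1359 nt and 9 exons. Subunits with at most 4 exons numbered 23, of which 22 were called lower with a median log2 difference of −1.69. The 9 subunits with 7 or more exons had 8 called lower and a median of −0.75. Of the assembly factors, the 3 with at most 4 exons were all called lower with a median of −0.89, while of the 3 with 7 or more exons none was called lower and NDUFAF7 was called higher. Across the 47 genes the log2 difference correlated with log2 coding length (Pearson r = 0.52, Spearman rho = 0.49) and with log2 exon number (r = 0.61, rho = 0.64), but little with the DMSO level (r = −0.07, rho = −0.06). These correlations are across genes measured in the same 8 libraries and are given as descriptions.

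Short coding sequences had lower signal after SF153 outside complex I as well. A smooth curve through 11033 protein-coding genes gave a log2 difference of −0.86 at 300 nt, −0.51 at 600 nt, −0.26 at 1000 nt and −0.08 at 2000 nt. With such a curve removed from each library, 29 subunits were called lower and 2 higher, with a median log2 difference of −0.61, and 1 assembly factor was called lower and 1 higher, with a median of −0.02. Among the protein-coding genes tested in that way, 22.4% were called lower and 22.3% higher. The 2 subunits called higher were NDUFV3 at 0.84 and NDUFA4L2 at 0.56. The subunit median remained below that of the assembly factors by 0.59 on the log2 scale, beside 0.73 without the curve. Of the 40 genes of complexes II to V, 34 were then called lower and 1 higher, with a median of −0.98. The 14 iron-sulfur cluster genes had 4 called lower and a median of −0.02. The 12 assembly factors without NDUF symbols had 3 called lower, 3 higher and a median of −0.07. The 10 biogenesis regulators had 5 called lower and a median of −0.34. The curve was added after the data had been seen.

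**Figure D5:**
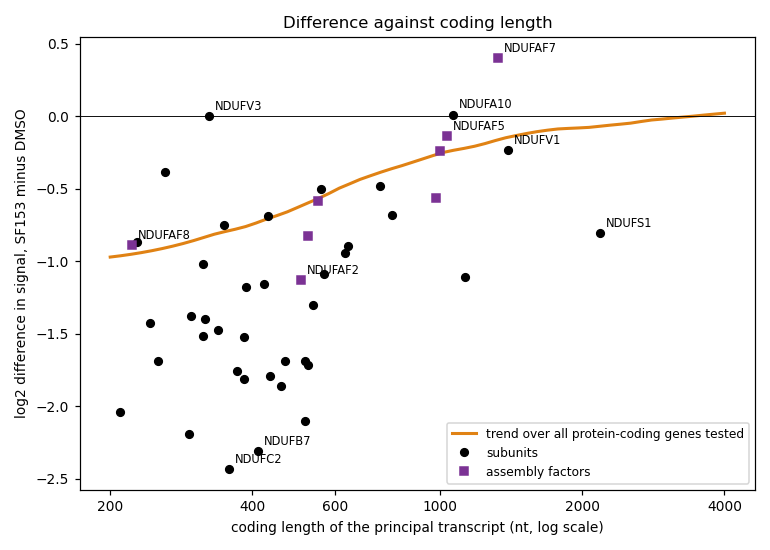
Log2 difference of signal, SF153 minus DMSO, against the coding length in nt on a log axis for 46 of the 47 genes, with the curve through 11033 protein-coding genes. The curve runs from −0.86 at 300 nt to −0.08 at 2000 nt, most subunits lie below it, and NDUFV3, at −0.00, lies farthest above it.

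Scaling set how many genes of the whole table lay on each side, and the subunit median moved with it. With mitochondrial and small RNA genes removed and the rest rescaled, 13.8% of genes tested were called lower and 35.0% higher, against 24.3% and 13.0% on the deposited scale, and the median of all genes moved by 0.30. On that scale 31 subunits were called lower and 2 higher, with a median log2 difference of −0.97, and 3 assembly factors were called lower and 1 higher, with a median of −0.26. Relative to the median of all genes, the subunits were at −1.27 on the deposited scale and −1.23 after the removal. The assembly factors were at −0.54 and −0.52. The removal rescales each library by a single factor, which moves nearly all genes alike, so these relative values were bound to stay close.

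Promoter sequence was examined because many subunits moved together. RefSeq gives a window of 250 bases before to 50 after a single transcription start (GRCh38.p14) for 33 of the 47 genes, 28 subunits and 5 assembly factors. RefSeq starts can lie inside the gene bounds of GENCODE release 29, so upstream bases inside any exon of that release were left out. For 15 of the genes at least 60 upstream bases remained. Among these, the run nearest to the start is shown for NDUFB7 and NDUFA8, which had the largest falls among these 15, and for NDUFV3 and NDUFA10, which did not pass the test. Each is written 5′ to 3′ on the gene's strand, with any match to a motif searched in capitals.
NDUFB7 (chr19:14572067-14572216, minus strand): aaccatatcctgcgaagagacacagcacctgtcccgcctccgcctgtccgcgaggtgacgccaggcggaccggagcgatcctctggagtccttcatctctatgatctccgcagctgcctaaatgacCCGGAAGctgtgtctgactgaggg
NDUFA8 (chr9:122159820-122159907, minus strand): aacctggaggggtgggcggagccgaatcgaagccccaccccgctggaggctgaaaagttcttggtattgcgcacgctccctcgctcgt
NDUFV3 (chr21:42893115-42893264, plus strand): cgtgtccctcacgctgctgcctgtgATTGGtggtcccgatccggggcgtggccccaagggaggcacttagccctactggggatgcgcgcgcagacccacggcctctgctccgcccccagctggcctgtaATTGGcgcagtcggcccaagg
NDUFA10 (chr2:240025403-240025552, minus strand): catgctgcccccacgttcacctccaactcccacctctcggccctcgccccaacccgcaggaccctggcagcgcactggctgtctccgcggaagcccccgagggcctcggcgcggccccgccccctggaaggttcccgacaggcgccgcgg
The capitals mark an ETS core (CCGGAAG) in NDUFB7 and a pair of inverted CCAAT boxes in NDUFV3. The stretches of NDUFA8 and NDUFA10 held no match, and NDUFA8 had NRF1 cores elsewhere in its window.

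Across the windows, motifs were searched on both strands. The NRF1 core GCATGCGC was in 5 of 28 subunit windows (17.9%) and 2 of 5 assembly factor windows, beside 4.42% of the 11786 protein-coding windows of the same length. The YY1 core AAGATGG was in 7 of 28 subunit windows (25.0%), in 0 of 5 assembly factor windows and in 6.70% of all. The windows with the YY1 core were those of NDUFA12, NDUFS4, NDUFA3, NDUFA6, NDUFA7, NDUFA9 and NDUFS7, which had log2 differences from −1.79 to −0.90. The windows of NDUFB7, NDUFB3, NDUFA8, NDUFA1, NDUFB11 and NDUFB6, with log2 differences from −2.31 to −1.81, held no YY1 core. The ETS core, which GABP binds, was in 4 of 28 subunit windows (14.3%) and in 15.1% of all, and the CCAAT box in 7 of 28 (25.0%) and in 37.2% of all. A match describes the letters in the window and does not show that a factor binds there.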

How the data were processed

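RNA was sequenced from 4 SF153 and 4 DMSO libraries of NKM-1 cells. Per the labels' protocols, ribosomal RNA was depleted from total RNA and libraries were stranded with dUTP; the use of strand in counting is not stated in them. CASAVA 1.8.2, STAR, Salmon, edgeR and GRCh38 are named, without roles, per the submitters' processing notes. The authors deposited a signal per gene, described in the file names as both CPM and TPM. Library sums differ (828381 to 1027119), so it is neither in plain form, and whether it corrects for gene length is not settled here. Levels are therefore compared mainly between groups. The contrast of subunits with assembly factors inside a library, the spread among subunits and the correlation with the DMSO level do compare genes. They rest on values whose length correction is unknown. It keeps no depth, so no counting interval is given.

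Values were taken as log2(signal + 1) and the groups were compared by limma (version 3.58.1, under R 4.3.3), with the variance prior following intensity and no batch term, for the 15542 genes with a mean of at least 1 over the 8 libraries. Benjamini-Hochberg adjustment covered all genes tested, and calls used adjusted p below 0.05. The procedure was tested on simulated data. Fold changes on this scale understate changes of low genes. Coding length and exon number were those of the principal transcript in GENCODE release 29 (GRCh38), which matched 17235 of 17912 identifiers. Module membership followed textbook knowledge. One gene is counted in the groups and is not reported singly here.

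The members and gene lists were chosen with earlier results of these data known, so no p-value is given for a list. Values in every library are given for the 6 called members with the largest falls, each member called higher, all assembly factors and the 3 smallest differences, and also for NDUFV1 and NDUFA5, chosen after their values were seen. From other lists, up to 3 called genes with the largest differences are named, together with PECAM1, ACAD9, NRF1 and the myeloid markers, chosen after their values were seen. The labels give each library a batch, 1 or 2, which pairs them by design. Over all genes the values show little batch deviation shared between the treatments. Deviations from group means were correlated across genes between SF153 and DMSO libraries. The mean r was 0.026 for the same batch and −0.026 for the other batch. Centering on group means ties these values to each other, and a batch difference within a single treatment does not enter them. Within SF153, the mitochondrial share was 16.8% in the libraries of batch 2 and 9.17% to 9.92% in those of batch 1. Both batch 2 libraries lay below both of batch 1 for 24 of 39 subunits in SF153 and 18 of 39 in DMSO. The shares of all genes were 26.3% and 22.3%. Alternatives covered the pseudocount, the filter, scaling, length trends, batch, the variance model and each library left out.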

Additional observations from a re-analysis of the deposited data

Results flagged for a closer look

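Of the 94 groups of 4 libraries formed by the 47 genes and both treatments, 6 held a library that stood apart from the other 3 by more than Dixon's 95% critical share of the group's range. Chance gives about 1 such group in 20. In SF153 libraries, NDUFA5 had a signal of 11.3 in SF153 1.1, where the other 3 lay at 4.06 to 5.11. NDUFA4L2 had 6.07 in SF153 1.2, with the others at 4.11 to 4.44. NDUFAF5 had 26.2 in SF153 2.2, with the others at 21.7 to 22.3. In DMSO libraries, NDUFB5 had 76.3 in DMSO 1.2, with the others at 65.9 to 67.0. NDUFB6 had 6.97 in DMSO 2.1, with the others at 11.2 to 11.8. NDUFS7 had 37.1 in DMSO 1.1, with the others at 33.4 to 33.9. Each of the 6 came from a different library.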

How the results depend on the processing

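There were 22 alternatives, 8 of which left out 1 library each. The log2 differences of the 47 genes stayed on their side of the threshold in 974 cases, lost a call in 43, gained a call in 8 and reversed in 9. Reversed means that the sign changed and the gene was called in the main fit or in the alternative. Calls lost or gained in those 9 cases are not among the 43 and the 8. Sign changes of genes called in neither fit are among the 974. In all, 28 genes, of which NDUFAF5 was never called, had the same status in every alternative. With batch as a replicate block, 36 subunits were called lower, since NDUFA5 at −0.75 passed (limma adjusted p = 0.0258), and no other call changed. With libraries averaged by treatment and batch, 31 subunits were called lower: NDUFA1, NDUFA13, NDUFB8 and NDUFV1 lost their calls, with limma adjusted p from 0.0514 to 0.15. The assembly factor median of −0.58 became −0.44 with a pseudocount of 5, −0.51 with median-of-ratios scaling, −0.42 with quantile normalization, −0.40 with a transcript length trend removed, −0.50 in batch 1 alone, and −0.63 to −0.53 with 1 library left out. Without mitochondrial and small RNA genes it was −0.26, with 3 factors lower, and the subunit median was −0.97 with 2 subunits higher. With the coding length trend removed, an alternative added after the data had been seen, the factor median was −0.017 with 1 factor lower, and the subunit median −0.61 with 2 subunits higher. Factors called lower numbered 2 in batch 1 and 3 in batch 2. Factors called higher numbered 0 in each batch alone and with libraries averaged by treatment and batch, and 0 to 1 with 1 library left out. Reversed values were those of NDUFV1 (0.017 under quantile normalization and 0.11 without mitochondrial and small RNA genes), NDUFV3 (0.33 without those genes), and, with the coding length trend removed, NDUFV3 (0.84), NDUFA4L2 (0.56), NDUFC1 (0.14), NDUFAF8 (0.13), NDUFB8 (0.037) and NDUFA13 (0.013). The cause of these shifts was not tested. NDUFAF1, NDUFAF3, NDUFB8 and NDUFV2 lost their calls without mitochondrial and small RNA genes, at −0.26, −0.26, −0.17 and −0.15. Depth is unknown, so low genes such as NDUFB6 cannot be given a counting error.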

Other observations

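Beside the protein-coding genes, 8 rows with NDUF symbols belong to other biotypes. NDUFA6-DT, a noncoding RNA that starts beside NDUFA6 and runs the other way, had 25.5, 24.1, 23.3 and 34.4 in SF153 and 14.5, 15.4, 19.5 and 15.9 in DMSO libraries. All SF153 libraries lay above all DMSO libraries, and the log2 difference was 0.68 ± 0.14 (SE; limma adjusted p = 0.00426). NDUFA6, on the other side of that region, was called lower at −1.52. This gene was chosen after its values were seen, and the labels do not state whether counting used the strand. The pseudogene NDUFAF2P2 had 7.24, 5.01, 5.74 and 7.70 in SF153 and 3.71, 5.03, 2.63 and 10.8 in DMSO libraries, with overlapping groups.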
